A study of Rattus norvegicus with 5 samples.

Results

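Clone 5-3.19 of the rat insulinoma line INS-1 was set beside its parental line, and both were compared with the clones 1-1.2, 1-1.16 and 5-3.14. The genes described were chosen on the signals themselves. A probe set was taken when clone 5-3.19 lay within 1.5-fold of parental cells while each of the other 3 clones lay at least 2-fold away from both, in the same direction. Of 9520 probe sets bright enough to be compared, 31 met this rule. In 24 of them (0.252% of the 9520) the other clones lay below clone 5-3.19 and parental cells, and in 7 (0.0735%) they lay above. The 31 probe sets cover 28 of the 6944 named genes compared (21 on the first side and 7 on the second), and 3 probe sets carry no gene symbol.

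Total RNA of the 5 lines was hybridised to rat expression arrays, with 1 array per line. Clones 5-3.19, 1-1.2, 1-1.16 and 5-3.14 are INS-1 Flp-In T-REx lines, which carry an FRT site for placing a gene by Flp recombinase and a tetracycline repressor that holds such a gene silent until tetracycline is given; the parental INS-1 line is the cell line they were made from. Each clone is 1 isolate, its labels name no introduced gene and no tetracycline treatment, and they do not say what the first part of a clone name (1-1 or 5-3) stands for. With 1 array per line there is no replicate error for clone 5-3.19 or parental cells, no test was made, and a difference between lines cannot be told apart from one between cultures, RNA preparations or arrays.

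INS-1 cells are beta-like cells that make insulin and release it when glucose is metabolised. Glucose entry and glycolysis raise ATP, potassium channels close, calcium enters, and hormone-loaded dense-core granules fuse with the plasma membrane. Peptide hormones acting through receptors coupled to cyclic AMP add to this release. When a cell line is cloned, each clone descends from a single cell.

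The deposited signals were linear and already scaled to a trimmed mean of about 1000 on each array, and a signal is on an arbitrary scale that compares lines for one probe set but not one probe set with another. In each sentence on a gene below, the values of the other clones run in the order 1-1.2, 1-1.16 and 5-3.14. The fold given is the geometric mean of clone 5-3.19 and parental cells against that of the other 3 clones (n = 2 lines and n = 3 lines), after 21.8 was added to each signal. These folds describe the genes picked by the rule and support nothing further. Over the 24 probe sets of the first kind the median fold was 3.18, with a range of 2.26 to 6.78, and over the 7 of the second kind, other clones over the pair, it was 3.18, with a range of 2.11 to 4.67. Clone 5-3.19 was above parental cells in 11 of the 24 and below in 13, at 0.693 to 1.49 times the parental value after the same offset.

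**Figure D1:**
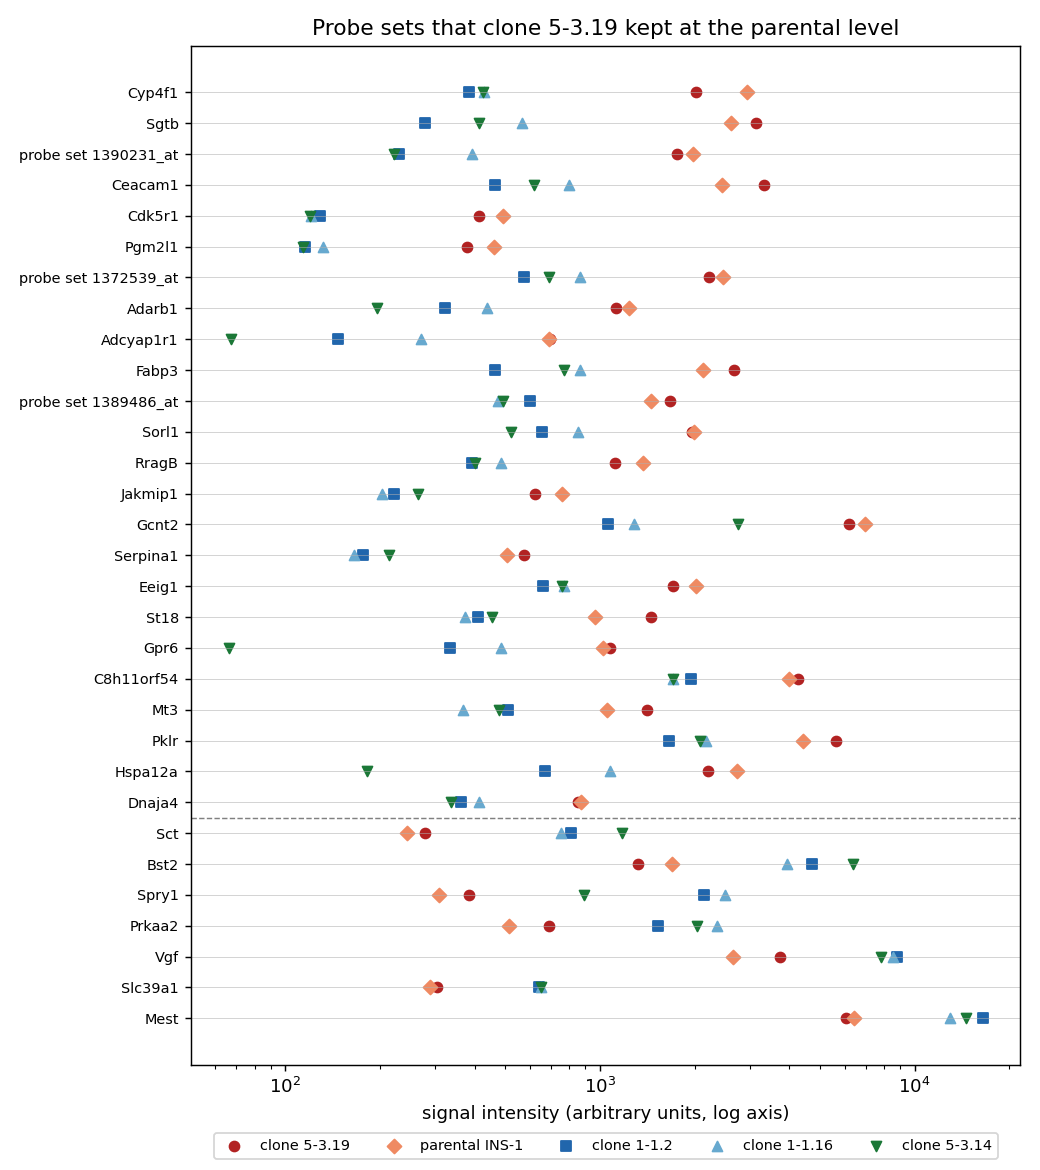
Signal of each of the 31 probe sets on each of the 5 arrays, on a log axis in arbitrary units, with clone 5-3.19 as circles, parental cells as diamonds and the other 3 clones as squares and triangles. Above the dashed line the other 3 clones lie left of the pair (24 probe sets), and below it they lie right of the pair (7 probe sets).

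The genes are taken below by what each is known to do, an order made after they were seen; the glycolysis and fatty acid synthesis lists described further on held 0 of them. Pklr encodes the liver and red cell pyruvate kinase, the last enzyme of glycolysis, whose L form is glucose-responsive in liver and beta cells. Its signal was 5616 in 5-3.19 and 4409 in parental cells, against 1661, 2171 and 2078 in the other clones, which averaged 1970.0 ± 272 (SD, n = 3). All 3 clones sat close together and at less than the level of either line of the pair, and the fold was 2.53. Pgm2l1, which makes glucose 1,6-bisphosphate, read 377 in 5-3.19 and 462 in parental cells, against 116, 132 and 114 in the other clones, a 3.09-fold difference among dim signals. Fabp3, a carrier of fatty acids in the cytosol, read 2669 in 5-3.19 and 2134 in parental cells, against 464, 864 and 771 in the other clones. Clone 5-3.19 was the brightest array for Fabp3, 1-1.2 was the dimmest, and the fold was 3.45. Cyp4f1, a cytochrome P450 that hydroxylates fatty acids and eicosanoids, had the widest gap of any member. It read 2021 in 5-3.19 and 2924 in parental cells, against 384, 429 and 425 in the other clones, which averaged 413 ± 24.8 (SD, n = 3). The nearest of the other clones lay 4.53-fold below clone 5-3.19, and the 3 of them differed from each other far less than from the pair.

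Adcyap1r1 encodes the PAC1 receptor for the neuropeptide PACAP, which raises cyclic AMP and adds to glucose-stimulated insulin release. It read 692 in 5-3.19 and 691 in parental cells, against 147, 270.4 and 67.1 in the other clones, so the pair was nearly equal while 5-3.14 was at the lowest level and 1-1.16 at the highest of the rest (4.36-fold). Gpr6 encodes an orphan receptor that raises cyclic AMP without added ligand, and read 1079.5 in 5-3.19 and 1027 in parental cells, against 334, 487 and 66.4 in the other clones. Here, too, 5-3.14 was far dimmer than 1-1.2 and 1-1.16, and the fold was 4.27. Without 5-3.14 the log2 difference of Gpr6, pair minus others, was 1.34, against 2.09 with it. Cdk5r1 encodes p35, the activator of the kinase Cdk5, and read 413 in 5-3.19 and 491 in parental cells, against 129, 121 and 119.6 in the other clones. The 3 clones were nearly alike in it, averaging 123 ± 4.92 (SD, n = 3), under the mean signal of about 194 that a probe set needed to be compared, and the fold was 3.26. RragB, a Rag GTPase that relays amino acid supply to mTORC1, read 1119 in 5-3.19 and 1366 in parental cells, against 393, 484 and 401 in the other clones. Jakmip1, a protein that binds Janus kinases and microtubules, read 625 in 5-3.19 and 757 in parental cells, against 222, 203 and 265 in the other clones. Both showed 2 well separated sets of arrays, with folds of 2.82 and 2.83.

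Ceacam1 is an adhesion glycoprotein that in mouse liver takes part in insulin clearance. It read 3326 in 5-3.19 and 2440.0 in parental cells, against 463, 797 and 616 in the other clones, with a fold of 4.54 and all 3 clones below even the lower line of the pair by a wide margin. Gcnt2, which adds branches to poly-N-acetyllactosamine chains, read 6183 in 5-3.19 and 6957 in parental cells, against 1058, 1284 and 2751 in the other clones. Clone 5-3.14 lay between the 1-1 clones and the pair for Gcnt2, and the other 3 averaged 1698 ± 919 (SD, n = 3). Sorl1, a sorting receptor that moves cargo between the Golgi and endosomes, read 1958 in 5-3.19 and 1985 in parental cells, against 656, 851 and 521 in the other clones. Serpina1, alpha-1-antitrypsin, a secreted protease inhibitor, read 576 in 5-3.19 and 506 in parental cells, against 177, 165 and 214 in the other clones. For both, the groups of arrays were well apart, with folds of 2.91 and 2.72.

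Sgtb, a co-chaperone with tetratricopeptide repeats, had the highest fold of all, 6.78, at 3129 in 5-3.19 and 2616 in parental cells, against 279, 567 and 412 in the other clones. Hspa12a, a distant member of the Hsp70 family, read 2205 in 5-3.19 and 2718 in parental cells, against 669, 1080.3 and 182 in the other clones. Dnaja4, an Hsp40 co-chaperone, read 852 in 5-3.19 and 873 in parental cells, against 362, 413 and 336 in the other clones. The other clones lay close together in Dnaja4, while in Hspa12a clone 5-3.14 was far below 1-1.16. Without 5-3.14 the log2 difference of Hspa12a was 1.5, against 2.20 with it. Adarb1 encodes ADAR2, which edits adenosine to inosine in RNA, and read 1127 in 5-3.19 and 1235 in parental cells, against 322, 438 and 196 in the other clones. St18, a zinc finger transcription factor, read 1451 in 5-3.19 and 968 in parental cells, against 409.8, 373 and 455 in the other clones. In St18 clone 5-3.19 was the brightest array and lay near the 1.5-fold limit from parental cells, and in Adarb1 the pair was close. Eeig1 read 1708 in 5-3.19 and 2019 in parental cells, against 662, 769 and 759 in the other clones, a 2.50-fold difference. Outside the naming rule, and named after their values were seen so that every member is accounted for, are C8h11orf54 at 4254 in 5-3.19 and 3985 in parental cells, against 1944, 1704 and 1714 in the other clones, and Mt3, a metallothionein that binds zinc and copper, at 1408 in 5-3.19 and 1057 in parental cells, against 509.5, 368 and 479 in the other clones; Pklr above was also named in that way. The 3 probe sets with no symbol behaved alike, with folds of 6.41, 3.28 and 2.91.

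The 7 genes that were lower in clone 5-3.19 and parental cells included 2 secreted products. Vgf encodes a granin-like protein of dense-core granules that is cut into bioactive peptides, and read 3735 in 5-3.19 and 2646 in parental cells, against 8809, 8559.7 and 7805 in the other clones. The other clones averaged 8391 ± 523 (SD, n = 3), narrowly spread and 2.65-fold above the pair. Sct encodes secretin, a gut hormone acting through cyclic AMP, and read 279 in 5-3.19 and 244 in parental cells, against 807, 753 and 1176 in the other clones. Clone 5-3.14 was the highest array for Sct, and the other clones were 3.24-fold above the pair. Spry1, a feedback inhibitor of receptor tyrosine kinase signalling, showed the largest difference on this side. It read 385 in 5-3.19 and 308 in parental cells, against 2139.6, 2507 and 890.0 in the other clones, so both 1-1 clones were well above 5-3.14 and all 3 above the pair, 4.67-fold in the geometric mean. Prkaa2, the alpha 2 catalytic subunit of AMP-activated kinase, which senses low energy, read 691 in 5-3.19 and 516 in parental cells, against 1529.9, 2359 and 2031 in the other clones, a 3.18-fold difference. Bst2, or tetherin, an interferon-induced membrane protein that holds enveloped viruses at the cell surface, read 1325 in 5-3.19 and 1692 in parental cells, against 4723, 3938 and 6367 in the other clones. Slc39a1, the zinc importer ZIP1, read 304 in 5-3.19 and 288 in parental cells, against 641, 652 and 652 in the other clones. The other 3 clones were almost identical in Slc39a1, at 648 ± 6.18 (SD, n = 3), although the fold was only 2.11. Mest, an imprinted gene of the alpha/beta hydrolase fold family, read 6039 in 5-3.19 and 6426 in parental cells, against 16469.8, 12954 and 14550.1 in the other clones, a 2.34-fold difference.

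The spread of the other clones differed between members. The highest of the 3 lay within 1.5-fold of the lowest in 13 of the 24 probe sets on the higher side and in 3 of the 7 on the lower side, and over 2-fold from it in 6 and 1. Clones 1-1.2, 1-1.16 and 5-3.14 were the farthest from the pair in 9, 6 and 9 of the 24. Both lines of the pair had a signal of at least 500 in 22 of the 24 and in 4 of the 7. In 2 of the 24, Adcyap1r1 and Gpr6, the lowest array was under 100. The 28 genes lie on 16 chromosomes, with at most 4 on one of them. Leaving clone 5-3.14 out of the rule raised the counts to 65 and 23, leaving 1-1.16 out raised them to 42 and 12, and leaving 1-1.2 out raised them to 31 and 11, against 24 and 7 with all 3. A rule with fewer clones to satisfy can only take in more probe sets.

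The promoters of 3 members are shown, 250 bases up to the base before the RefSeq start of each gene, from GRCr8 and written along the strand of the gene: Pklr and Vgf because they are a glycolytic and a granule gene on opposite sides, and Cyp4f1 because its gap was the widest. Capitals mark matches to 4 short motifs searched for on both strands or, for the TATA box, on the strand of the gene: the cyclic AMP response element TGACGTCA, the E-box CACGTG, the TATA box TATAAA and the GC box GGGCGG, which reads CCGCCC on the other strand. Pklr lies at chr2:176841014-176841263 on the plus strand, Vgf at chr12:25277021-25277270 on the minus strand and Cyp4f1 at chr7:12672554-12672803 on the minus strand.
Pklr: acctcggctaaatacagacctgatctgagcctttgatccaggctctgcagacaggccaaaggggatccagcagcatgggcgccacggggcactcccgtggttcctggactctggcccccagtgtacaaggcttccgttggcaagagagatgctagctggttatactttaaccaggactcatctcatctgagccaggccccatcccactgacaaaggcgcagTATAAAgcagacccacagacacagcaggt
Vgf: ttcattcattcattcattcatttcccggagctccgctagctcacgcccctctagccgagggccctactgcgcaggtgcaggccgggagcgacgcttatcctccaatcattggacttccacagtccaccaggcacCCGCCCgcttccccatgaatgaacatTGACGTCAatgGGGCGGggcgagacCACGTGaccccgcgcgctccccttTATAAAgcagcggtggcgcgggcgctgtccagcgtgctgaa
Cyp4f1: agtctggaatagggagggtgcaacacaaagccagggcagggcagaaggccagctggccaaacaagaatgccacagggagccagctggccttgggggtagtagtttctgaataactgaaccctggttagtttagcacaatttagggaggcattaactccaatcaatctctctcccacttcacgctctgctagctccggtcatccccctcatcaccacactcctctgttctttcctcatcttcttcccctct

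Pklr held a TATA box that began 29 bases before the start, and none of the other motifs. Vgf held all 4: a TATA box at 41 bases, an E-box at 65, a GC box at 79 and another at 116, and a cyclic AMP response element at 90 bases before the start. Cyp4f1 held none of these motifs in this window. Only the exact letters were searched for, so other forms of the E-box were not counted. Over all members, 24 of the 28 genes matched 26 promoters in the table. The cyclic AMP response element was in 2 of the 26, of Gpr6 and Vgf, which is 7.69% against 2.96% of 6494 promoters of all genes compared and 1.59% of 33469 promoters in all. The E-box was in 4 of the 26, of Ceacam1, Pgm2l1, Sorl1 and Vgf (15.4%, against 8.65% and 5.59%). The TATA box was in 3, of Mt3, Pklr and Vgf (11.5%, against 3.62% and 8.06%), and the GC box in 17 (65.4%, against 61.9% and 30.5%). Gpr6 was higher and Vgf lower in the pair, so genes with the same motif lay on opposite sides. A match describes the letters only; no binding was measured.

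The limits of the rule fall within a run of similar probe sets. Just inside the distance limit lay Dnaja4 and Hspa12a on the higher side, with the nearest clone 2.01-fold and 2.02-fold away, and just outside lay Plcxd3 and Cpne9. Plcxd3 read 4137 in 5-3.19 and 4167 in parental cells, against 1029, 2076 and 432 in the other clones, with 1-1.16 only 1.98-fold away. Cpne9, a copine, read 5059 in 5-3.19 and 4732 in parental cells, against 156, 1368 and 2414 in the other clones. On the lower side Mest and Slc39a1 lay just inside, and Fat1, a large protocadherin, lay just outside with 2590.0 in 5-3.19 and 2492 in parental cells, against 6952, 4859 and 5894 in the other clones. The closeness limit cut off S100a4, a calcium-binding protein of motile cells, where clone 5-3.19 fell to 0.644 of parental. Its signal was 9792 in 5-3.19 and 15210.2 in parental cells, against 2012, 1866 and 343 in the other clones, so the other clones were much farther down than clone 5-3.19. Rgs22, a regulator of G-protein signalling, was cut off in the same way at 603 in 5-3.19 and 1015 in parental cells, against 92.2, 234 and 153 in the other clones. Camk4, a calcium/calmodulin-dependent kinase, read 263 in 5-3.19 and 127 in parental cells, against 826, 962 and 883 in the other clones, with clone 5-3.19 at 1.92 times the parental level after the offset of 21.8 was added, or 2.08 times on the signals as deposited. Just inside the closeness limit lay St18 and Cyp4f1, and on the lower side Vgf and Prkaa2.

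Clone 5-3.19 kept only some of what the other clones had moved. Taking parental cells alone as the starting point, the other 3 clones were each at least 2-fold below parental in 98 probe sets (1.03% of those compared). Clone 5-3.19 stayed within 1.5-fold of parental in 37 of them, which is 37.8%. It was at least 2-fold below parental in 41 (41.8%), between these limits in 17, and over 1.5-fold above parental in 3. The median change was -0.77 log2 in clone 5-3.19 and -1.63 log2 in the mean of the others. The other 3 clones were each at least 2-fold above parental in 39 probe sets (0.410%), of which clone 5-3.19 kept 12 (30.8%). It was at least 2-fold above parental in 21 (53.8%), between these limits in 5, and over 1.5-fold below parental in 1. Here the median changes were 1.05 and 1.65 log2. These probe sets share the parental array as their starting point.

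Of the 37 and 12 kept probe sets, 13 and 5 were not among the 31 because not all of the other clones lay at least 2-fold from clone 5-3.19. Ece1, endothelin-converting enzyme, picked as an example after its values were seen, was one of these, at 4450.3 in 5-3.19 and 5103 in parental cells, against 1186, 1575 and 2446 in the other clones. Prkacb, a catalytic subunit of protein kinase A, picked in the same way, was another, at 1306 in 5-3.19 and 1807 in parental cells, against 722, 467 and 742 in the other clones. The 4 probe sets in which clone 5-3.19 moved over 1.5-fold against the others were Igfbp1, Scn7a, Fars2 and St3gal1, named here after their values were seen. Igfbp1, a secreted binding protein of insulin-like growth factors, read 2161 in 5-3.19 and 940.0 in parental cells, against 174, 218 and 64.9 in the other clones. Scn7a, a sodium channel-like protein, read 3667 in 5-3.19 and 1812 in parental cells, against 514, 581 and 816 in the other clones. Fars2, the mitochondrial phenylalanyl-tRNA synthetase, read 4380.4 in 5-3.19 and 1775 in parental cells, against 426, 499 and 743 in the other clones. In these 3, clone 5-3.19 was the brightest array and parental cells the next brightest. St3gal1, a sialyltransferase, read 654 in 5-3.19 and 1570.4 in parental cells, against 3689.6, 4736 and 3279.5 in the other clones, with clone 5-3.19 as the dimmest array.

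**Figure D2:**
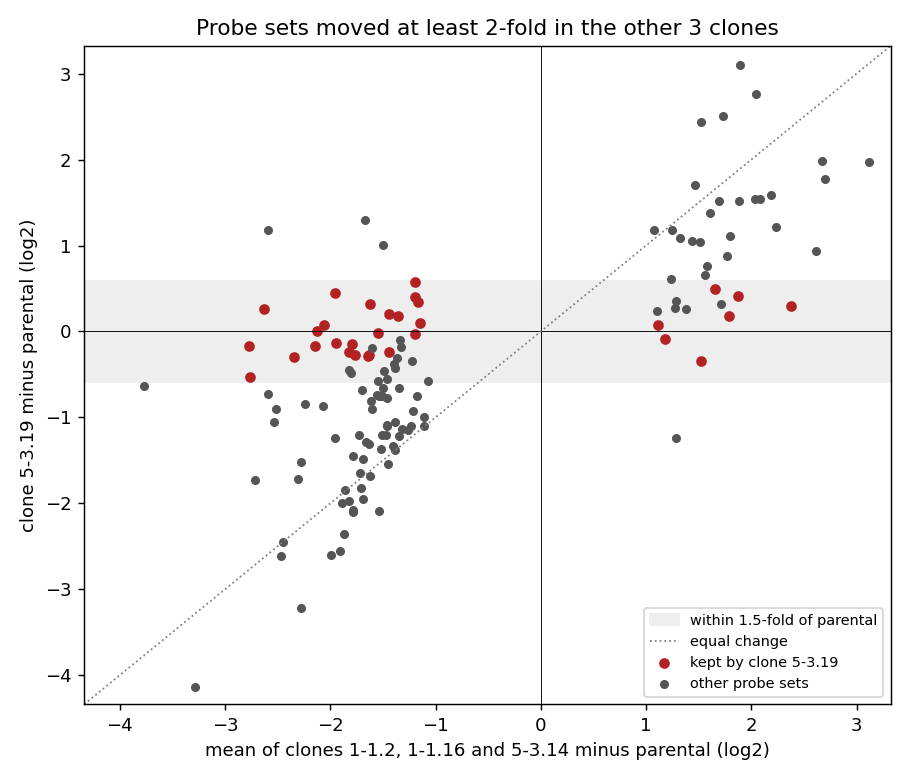
Difference of clone 5-3.19 from parental cells (vertical axis, log2) against the mean difference of clones 1-1.2, 1-1.16 and 5-3.14 from parental cells (horizontal axis, log2), for the 98 and 39 probe sets moved at least 2-fold in all 3. The 31 chosen probe sets (larger points) lie in the shaded band within 1.5-fold of parental, while many others lie near the dotted line of equal change.

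Over all probe sets clone 5-3.19 was not a copy of the parental line. At least 2-fold differences from parental numbered 492 in clone 5-3.19 (5.17% of 9520), 480 in 1-1.2 (5.04%), 726 in 1-1.16 (7.63%) and 849 in 5-3.14 (8.92%). Clone 5-3.19 was set beside parental cells with these counts known, so its place among the 4 clones is a description and no finding. It differed 2-fold from 5-3.14 in 627 probe sets, higher in 458 and lower in 169, from 1-1.2 in 793 and from 1-1.16 in 783. The 1-1 clones differed from each other in 254.

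Several genes have more than 1 probe set, which gives a second reading of the same RNA on the same array by other probes. For 7 member genes there were 13 further probe sets, and in 8 of these both lines of the pair again lay on the same side of all 3 other clones. Among the 6 bright enough to be compared, which are of 4 genes, it was 4. Among the 7 too dim for that it was also 4, and dim probe sets of Adcyap1r1, Jakmip1 and Sorl1 overlapped. Over all 6944 genes compared, at the brightest probe set of each, the pair lay above all 3 other clones in 11.8% and below all 3 in 15.3%. The further probe sets include dim ones and several of Sorl1, so these shares are not a like comparison. The other Pklr probe set read 1733 in 5-3.19 and 1174 in parental cells, against 323, 639 and 609 in the other clones, and that of Dnaja4 read 1789 in 5-3.19 and 1609.9 in parental cells, against 1055, 1255 and 1126 in the other clones. A dimmer Ceacam1 probe set read 525 in 5-3.19 and 348 in parental cells, against 81.2, 179.6 and 85.4 in the other clones. In these 3 both lines of the pair again lay above all 3 other clones, although in each of them 1-1.16 lay nearer than 2-fold to parental cells. In this Dnaja4 probe set all 3 other clones lay nearer than 2-fold to both lines of the pair. Sorl1 was mixed. One further probe set of it read 1742 in 5-3.19 and 1921 in parental cells, against 1085, 794 and 655 in the other clones, and the next read 1208 in 5-3.19 and 1366 in parental cells, against 573, 697 and 432 in the other clones, and in both the pair again lay above the other clones. Another read 1044 in 5-3.19 and 1413 in parental cells, against 1526, 887 and 897 in the other clones, and there the groups overlapped. The second Adarb1 probe set overlapped as well, at 382 in 5-3.19 and 465 in parental cells, against 307, 384 and 174 in the other clones, where 1-1.16 was level with clone 5-3.19.

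To see whether whole pathways followed these genes, 23 gene lists were described with 1 probe set per gene. Over all 6944 genes compared, both lines of the pair lay above all 3 other clones in 817 (11.8%) and below all 3 in 1065 (15.3%), and the median difference, pair minus others, was -0.03 log2. Of the 28 named members, 4 (14.3%) belonged to any list, Sct, Bst2, Spry1 and Vgf, as did 422 (6.08%) of the 6944 genes. For each list the 4 genes with the largest difference are given, and a median that moved by over 1.5 times when 1 of the other clones was left out is given without that clone. A difference of a gene or list below is pair minus other clones, in log2.

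Of 18 genes of ion channels and calcium pumps, 8 lay above all 3 clones and 0 below, with a median difference of 0.48 log2. With median centring or quantile normalization the 8 became 7. The median difference from parental was -0.12 log2 in clone 5-3.19, against -0.49, -0.49 and -0.45 log2 in clones 1-1.2, 1-1.16 and 5-3.14. Itpr1, a calcium release channel of the endoplasmic reticulum, read 2699.6 in 5-3.19 and 2659.8 in parental cells, against 1138, 1362 and 1064 in the other clones. Scn3a, a voltage-gated sodium channel, read 2182 in 5-3.19 and 2823 in parental cells, against 1607, 559.8 and 1401 in the other clones, and Cacna1a, the pore of P/Q-type calcium channels, read 438 in 5-3.19 and 406 in parental cells, against 155, 185 and 287 in the other clones. These 3 showed no overlap between the groups. Kcnma1, the large-conductance calcium-activated potassium channel, did not follow, at 217 in 5-3.19 and 648 in parental cells, against 241, 107 and 244 in the other clones, where clone 5-3.19 lay among the other clones.

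Of 14 secretory granule genes, 5 lay above all 3 clones and 2 below, with a median of 0.20 log2. Pcsk2, the prohormone convertase that cuts proinsulin and proglucagon, read 8705 in 5-3.19 and 9129.9 in parental cells, against 3331, 1974 and 7512 in the other clones. Scg2, secretogranin II, read 4689 in 5-3.19 and 7893 in parental cells, against 2984, 1728 and 3843 in the other clones. In Pcsk2 clone 5-3.14 lay close under the pair, and in Scg2 clone 5-3.19 lay nearer to 5-3.14 than to parental cells. Vgf ran the other way, as given above. Slc18a1, a vesicular transporter of monoamines, had the largest difference of the list, 2.61, but the groups overlapped. It read 2409 in 5-3.19 and 1189 in parental cells, against 71.0, 119 and 1675 in the other clones, so 5-3.14 lay above parental cells. Without 1-1.2 the median of the list was 0.31 log2. Of 16 beta cell identity genes, 2 lay above and 0 below (median 0.35 log2). The median was 0.56 log2 without 1-1.2 and 0.10 log2 without 1-1.16. The 2 were Slc2a2, the glucose transporter GLUT2, at 10531 in 5-3.19 and 8926 in parental cells, against 5338, 6485 and 4153 in the other clones, and Nkx6-1, a transcription factor of mature beta cells, at 2158 in 5-3.19 and 2219.5 in parental cells, against 1053, 1599 and 1031 in the other clones. Hnf4a, a nuclear receptor and transcription factor, read 362 in 5-3.19 and 433 in parental cells, against 150.2, 121 and 404 in the other clones. Gipr, the receptor of the gut hormone GIP, read 1522 in 5-3.19 and 2000.1 in parental cells, against 962, 817 and 1793 in the other clones. In Hnf4a and Gipr the groups overlapped, since 5-3.14 lay above clone 5-3.19.

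The lists of ribosomal proteins, cell cycle, amino acid response and interferon had medians below that of all genes, as did some lists given further on. Of 25 ribosomal protein genes, 15 lay below all 3 clones and 0 above, with a median of -0.22 log2. Medians against parental were 0.11 log2 in clone 5-3.19, against 0.34, 0.26 and 0.29 log2 in the other clones. With median centring or quantile normalization the 15 became 10, and the median was -0.25 and -0.13 log2. Rpl14 read 9131 in 5-3.19 and 7502 in parental cells, against 10376, 11339.7 and 14206 in the other clones, and Rpl18 read 20721 in 5-3.19 and 17345 in parental cells, against 24939, 25447 and 26259 in the other clones, which are modest differences at high signal. The differences of Rpl34 and Rps15 were -0.37 and -0.43, also with no overlap. Of 31 cell cycle genes, 9 lay below and 1 above (median -0.19 log2). Mcm7, a subunit of the replicative helicase, read 4562 in 5-3.19 and 4913 in parental cells, against 8088, 8172 and 5828 in the other clones. Cdkn1a, the p21 inhibitor of cyclin-dependent kinases, lay on the same side at 651 in 5-3.19 and 609.6 in parental cells, against 905, 1152 and 784 in the other clones, although it restrains the cycle. Tk1, a thymidine kinase, also lay below all 3 (-0.51), and Ccnd2, cyclin D2, was the 1 above (0.49).

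Of 20 genes of the amino acid response, 6 lay below all 3 clones and 1 above, with a median of -0.47 log2 that was -0.15 log2 without 1-1.16. Mthfd2, a mitochondrial enzyme of one-carbon metabolism, read 783 in 5-3.19 and 1006 in parental cells, against 1762, 2121 and 1599 in the other clones. Trib3, a pseudokinase induced by ATF4, read 142 in 5-3.19 and 179 in parental cells, against 356, 1314 and 345 in the other clones. In both the groups were apart, with 1-1.16 much the brightest for Trib3. The transcription factors Atf5 and Cebpb had differences of -0.99 and -0.83, and in both the groups overlapped through 5-3.14. Of 15 interferon and antigen presentation genes, 5 lay below and 0 above (median -0.44 log2), Bst2 among them. Icam1, an adhesion molecule for leukocytes, read 17.1 in 5-3.19 and 89.0 in parental cells, against 662, 1021 and 171 in the other clones, where the signals of the pair are too dim to rank. Psmb9, an immunoproteasome subunit, read 636 in 5-3.19 and 453 in parental cells, against 734, 1064 and 1266 in the other clones. Sting1, the adaptor of cytosolic DNA sensing, read 37.4 in 5-3.19 and 501 in parental cells, against 836, 468 and 209.5 in the other clones, and its groups overlapped. Leaving out 5-3.14 brought the median of this list to -0.17 log2.

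In sterol synthesis, clone 5-3.19 was not at the parental level, although 4 of 19 genes lay above all 3 clones and 0 below (median 0.65 log2). Its median against parental was -0.73 log2, against -0.88, -2.02 and -0.51 log2 in 1-1.2, 1-1.16 and 5-3.14, so it lay within the range of the other clones. The median difference was 0.35 log2 without 1-1.16. Idi1, isopentenyl diphosphate isomerase, read 3931 in 5-3.19 and 6540.3 in parental cells, against 3308, 1208 and 3795 in the other clones, with the groups barely apart. The sterol enzymes Sqle, Mvd and Hsd17b7 had differences of 1.15, 1.18 and 1.03, and in all 3 the groups overlapped, 5-3.14 lying above clone 5-3.19. Of 13 fatty acid synthesis genes, 2 lay above all 3 clones and 0 below, but the median of clone 5-3.19 against parental was -1.02 log2, against -0.49, -1.07 and -0.28 log2 in the others. Acaca, acetyl-CoA carboxylase 1, was one that was kept, at 5602 in 5-3.19 and 6182 in parental cells, against 2895, 3193 and 2520.2 in the other clones. Acss2, Fads1 and Aacs, enzymes of acetyl-CoA supply, fatty acid desaturation and ketone body use, had differences of 0.84, 0.51 and 0.49, with overlap in each. The median difference of this list, 0.31 log2, was 0.13 log2 without 1-1.16. Txnip, an inhibitor of thioredoxin that responds to glucose, read 15373 in 5-3.19 and 13153 in parental cells, against 2942, 10608 and 1988 in the other clones, with 1-1.16 near the pair. Of 24 growth factor genes, 5 lay above and 4 below (median -0.20 log2). Igfbp2, like Igfbp1 above a binding protein of insulin-like growth factors, read 3262 in 5-3.19 and 2921 in parental cells, against 521, 2301 and 489.6 in the other clones. Tgfb2, a transforming growth factor, overlapped at 35.1 in 5-3.19 and 215 in parental cells, against 531, 1189.5 and 107 in the other clones. Without 1-1.16 the median of the growth factor list was -0.10 log2.

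Of 21 neuronal genes, 3 lay above all 3 clones and 0 below (median 0.13 log2). Dcx, doublecortin, a microtubule-binding protein of young neurons, read 1518 in 5-3.19 and 2541 in parental cells, against 823, 746 and 1004 in the other clones, and Cntn1, contactin 1, an adhesion molecule of neurons, read 540.2 in 5-3.19 and 619 in parental cells, against 297, 379 and 125 in the other clones. Olfm1, a secreted olfactomedin, and Nefl, a neurofilament subunit, had differences of 1.30 and -1.24, and in both the groups overlapped. The median of the neuronal list was 0.24, 0.21 and 0.08 log2 without 1-1.2, 1-1.16 and 5-3.14. With the mean over the probe sets of a gene it was 0.0044 log2. Of 22 hormone and transmitter receptor genes, 3 lay above and 3 below, with a median of 0.04 log2 that turned to -0.0032 under quantile normalization. Adora2b, an adenosine receptor that raises cyclic AMP, read 1245 in 5-3.19 and 4182 in parental cells, against 554, 749.8 and 573 in the other clones, and Gabrd, the delta subunit of GABA-A receptors, read 765 in 5-3.19 and 2243 in parental cells, against 415, 462 and 460.4 in the other clones. Igf1r, the receptor of insulin-like growth factor 1, lay on the lower side at 1269 in 5-3.19 and 423 in parental cells, against 2218, 2047 and 1296 in the other clones. In all 3 receptors clone 5-3.19 lay nearer to the nearest other clone than to parental cells. Sstr3, a somatostatin receptor, had a difference of 1.18, with overlap. The median of the receptor list was 0.18 log2 without 1-1.16 and 0.11 log2 without 5-3.14. Of 17 epithelial adhesion genes, 3 lay above and 2 below (median 0.27 log2). The median was 0.02, 0.15 and 0.58 log2 without 1-1.2, 1-1.16 and 5-3.14. Ncam1, a neural and endocrine adhesion molecule, read 351 in 5-3.19 and 483 in parental cells, against 219, 178 and 275 in the other clones, and Krt7 is given below. Muc13, a membrane mucin, and Espn, an actin-bundling protein, had differences of 1.44 and 1.56, but 5-3.14 lay above parental cells in both. Of 10 retinoid and aldehyde genes, 2 lay above and 1 below (median 0.18 log2). Crabp1, a cytosolic carrier of retinoic acid, read 533 in 5-3.19 and 1127 in parental cells, against 195, 280.2 and 96.2 in the other clones. Aldh1a1, a retinaldehyde dehydrogenase, read 5664 in 5-3.19 and 599 in parental cells, against 408, 829.6 and 664 in the other clones, so it was high in clone 5-3.19 alone. Dhrs3, a retinaldehyde reductase, lay above all 3 (0.80) and Aldh7a1, an aldehyde dehydrogenase, below (-0.52). Without 1-1.16 the median of this list was 0.09 log2.

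Of 17 hypoxia genes, 4 lay above and 2 below (median 0.18 log2). Mxi1, a repressor that opposes Myc, read 1674 in 5-3.19 and 2203 in parental cells, against 1237, 864 and 856 in the other clones, and Higd1a, a mitochondrial protein induced in hypoxia, lay on the lower side at 2978 in 5-3.19 and 2957 in parental cells, against 5784, 4059 and 6916 in the other clones. Stc1, the secreted glycoprotein stanniocalcin 1, was also lower (-1.31), and Pfkfb4, which makes fructose 2,6-bisphosphate, was higher (0.58). Stc1 read 5536.5 in 5-3.19 and 1880 in parental cells, against 6097, 8551 and 9879 in the other clones. In Stc1 clone 5-3.19 thus lay nearer to 1-1.2 than to parental cells. Of 22 genes of the unfolded protein response, 1 lay above and 2 below (median -0.19 log2). Wfs1, wolframin, a protein of the endoplasmic reticulum needed by beta cells, read 559.8 in 5-3.19 and 713 in parental cells, against 472, 281 and 414 in the other clones. Creld2, a chaperone-like protein of the endoplasmic reticulum, lay below all 3 at 2132 in 5-3.19 and 3076 in parental cells, against 7948, 4299 and 3276 in the other clones. Sdf2l1, also of the endoplasmic reticulum, had the largest difference, -1.07, and Dnajb9, a co-chaperone, 0.55, with overlap in both. The median of this list was -0.02 log2 without 1-1.2 and -0.36 log2 without 5-3.14. Of 24 exocytosis genes, 1 lay above and 2 below (median 0.07 log2). Rims2, an active-zone protein that takes part in granule priming, read 634 in 5-3.19 and 365 in parental cells, against 353, 356 and 222 in the other clones. Rab3b, a GTPase of secretory vesicles, read 3012 in 5-3.19 and 1196 in parental cells, against 764, 149 and 2948 in the other clones. Sytl4, granuphilin, which docks insulin granules, read 748 in 5-3.19 and 3234 in parental cells, against 1708, 978 and 117 in the other clones. In Rab3b and Sytl4, the largest differences of this list, the groups overlapped, as in Cplx1, complexin 1 (-0.50). The exocytosis median was -0.0020, 0.11 and 0.18 log2 without 1-1.2, 1-1.16 and 5-3.14.

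Above and below all 3 clones lay 3 and 3 of 16 glycolysis genes (median -0.09 log2), 1 and 0 of 23 oxidative stress genes (-0.10 log2), 0 and 3 of 19 immediate early genes (-0.13 log2) and 1 and 3 of 31 genes of mitochondrial respiration (-0.02 log2). In glycolysis, beside Slc2a2, the difference was -0.93 for Fbp1, fructose-1,6-bisphosphatase, where the pair lay below all 3. Fbp1 read 1341 in 5-3.19 and 453 in parental cells, against 1420, 1607 and 1509 in the other clones. There clone 5-3.19 lay nearer to the other clones than to parental cells. Slc16a1, a lactate carrier, and Pfkl, a phosphofructokinase, had differences of -0.80 and 0.55 and overlapped. In oxidative stress, beside Txnip, the differences were 0.50, 0.59 and -0.63 for the glutathione enzymes Gss, Gstm1 and Mgst1, all with overlap. Of the immediate early genes, Nr4a3, an orphan nuclear receptor, lay below all 3 at 137 in 5-3.19 and 117 in parental cells, against 1873, 453 and 162 in the other clones, and Dusp5, a phosphatase of ERK, did too (-0.85). The transcription factors Jun and Atf3 had differences of -0.87 and -0.79 and overlapped. Of the respiration genes, Mdh2, malate dehydrogenase, and Ndufv1, of complex I, lay below all 3 (-0.51 and -0.37), while Ndufs4, of complex I, and Sdha, of complex II, overlapped (-0.32 and 0.32). The medians of these lists were near 0 and moved with the clone left out. Without 1-1.2, 1-1.16 and 5-3.14 the immediate early median was -0.08, 0.03 and -0.30 log2, so it changed sign without 1-1.16, and the respiration median was -0.07, -0.11 and -0.10 log2. The glycolysis median was -0.05 log2 without 1-1.2 and -0.05 log2 without 1-1.16, and the oxidative stress median was -0.0016 log2 without 5-3.14.

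The islet and gut hormone list had 0 above and 1 below of 6, with a median of 0.42 log2 that was 0.09 log2 without 1-1.2 and 0.18 log2 without 1-1.16. Beside Sct, Tff3, a trefoil peptide of mucosal surfaces, read 27465 in 5-3.19 and 7592 in parental cells, against 961, 976 and 30294 in the other clones. Gast, the gastrin gene, read 18.0 in 5-3.19 and 1362 in parental cells, against 2540.1, 3475 and 12.9 in the other clones. In Tff3 and Gast clone 5-3.19 lay with 5-3.14, and the groups overlapped. Cck, cholecystokinin, had a difference of 0.60, with overlap. The matrix list had 0 above and 0 below of 6, with a median of 0.61 log2 that was 0.38 log2 without 1-1.2. Differences were 0.74 for the collagen gene Col9a1, 0.67 for fibronectin, Fn1, 0.65 for Timp1, an inhibitor of matrix proteases, and 0.57 for Sparc, a matrix glycoprotein. In each of these 4 the groups overlapped.

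**Figure D3:**
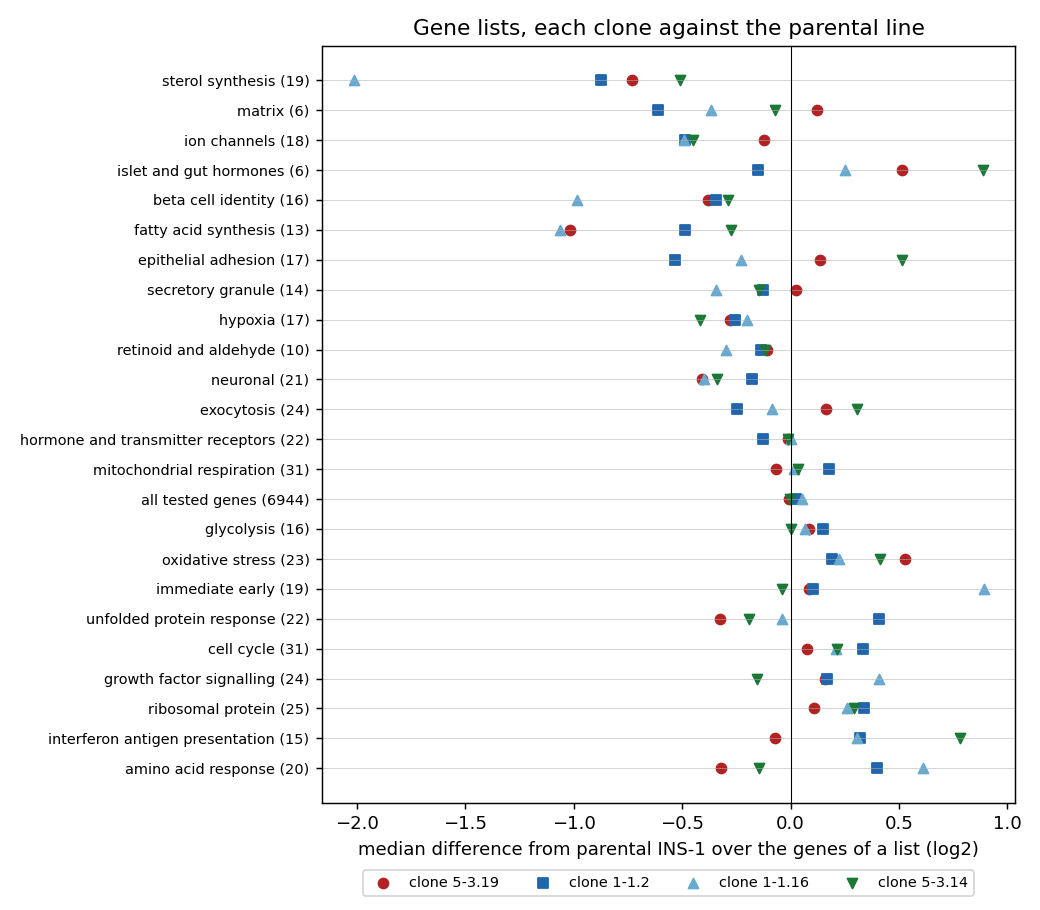
Median log2 difference from parental cells over the compared genes of each of 23 lists and of all 6944 genes (number of genes in brackets), for clone 5-3.19 and clones 1-1.2, 1-1.16 and 5-3.14. Ion channel, ribosomal protein and interferon lists place clone 5-3.19 nearer to 0 than the other 3 clones, while in the fatty acid and oxidative stress lists it lies farther from 0 than 2 or more of them.

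Ins2, one of the 2 rat insulin genes, was not among the genes kept. Ins2 read 4303 in 5-3.19 and 28816 in parental cells, against 30224, 5381 and 3953 in the other clones, so 1-1.2, not clone 5-3.19, was at the parental level. Ins1 read 37189.5 in 5-3.19 and 37359.9 in parental cells, against 42217, 34381 and 37973 in the other clones. This was the highest signal of each array, and whether an upper limit of the scan held it there was not tested. Iapp, the amyloid peptide stored with insulin, read 19159.8 in 5-3.19 and 27899 in parental cells, against 33945, 19871 and 28102 in the other clones, and Pdx1, a transcription factor of the insulin genes, read 2185 in 5-3.19 and 2829.8 in parental cells, against 2343, 1454 and 2845 in the other clones. Gcg, the glucagon gene, read 24434 in 5-3.19 and 6875 in parental cells, against 2064, 17772 and 20549.5 in the other clones, with clone 5-3.19 the brightest array and again away from parental. Ttr, transthyretin, also an alpha cell marker, read 174 in 5-3.19 and 178 in parental cells, against 207, 282 and 244 in the other clones. All 5 defining beta cell markers were bright enough to be compared, with a summed signal of 73368 in clone 5-3.19 and 105831 in parental cells, against 114067, 67571 and 77026 in the other clones.

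Markers of most other cells were dim in all lines. None of 3 delta cell, 1 pancreatic polypeptide cell, 7 acinar, 4 endothelial, 5 leukocyte and 7 fibroblast marker genes on the array was bright enough to be compared. Summed acinar signal was 548 in clone 5-3.19 and 550.1 in parental cells, against 608, 724 and 465 in the other clones, and the summed delta cell signal was 120 and 128, against 103, 119 and 136. Of 4 ductal marker genes on the array, Krt7 was the only one bright enough, and most of the summed signal of the 4 came from it. The sum was 1491.5 in clone 5-3.19 and 2059.5 in parental cells, against 1087, 1132 and 1095 in the other clones. It says little of the other ductal markers, which were too dim to be compared. Krt7, a keratin of ducts and simple epithelia, read 1218 in 5-3.19 and 1834 in parental cells, against 882, 903 and 808 in the other clones; its part in the other differences was not tested. In such bulk RNA, fewer cells that express a gene and less RNA per cell cannot be told apart. The parental array stood apart most in an added control, the lys transcript. This transcript averaged 1367 in clone 5-3.19 and 4844 in parental cells, against 1201, 1257 and 1645 in the other clones. The phe, thr, dap and trpn controls were also highest in parental cells, but at only 1.06 to 1.27 times the highest clone. The 18 hybridisation control probe sets went the other way, at 1301 in parental cells against 1484 in clone 5-3.19, the lowest clone. Clone 5-3.19 lay with the other clones in the lys control. Its closeness to parental cells in the 31 probe sets was set by the rule. The ratio of beta-actin signal at the 3′ to the 5′ end was 1.61 and 1.60, against 1.49, 1.73 and 1.62. The part of array handling in the differences was not tested.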

How the data were processed

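The deposited table holds linear signal intensity values, 1 per probe set and array, for 5 arrays. Which software, background correction or detection calls lay behind them is not given in the sources used here. Of 15923 probe sets, 57 controls were left out; 12783 of the other 15866 had 1 gene symbol in the platform annotation, 312 had several and 2771 none, and 12748 of the 12783 matched the RefSeq GRCr8 gene table. As these deposited signals had a trimmed mean (2% at each end) of 1000.24 to 1000.28 and a median of 342 to 372 per array, they were used as they stood. The number of arrays limits the precision.

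Signals were taken as log2(signal + 21.8), the offset being the 10th percentile of positive signals, so folds of dim genes are understated. Probe sets with a mean log2 level at or above the 40th percentile (a signal of about 194) were compared, 9520 in all. For gene lists the brightest probe set of a gene was used. No test was made, since the rule used the same arrays and each line has 1. The members and lists were chosen with earlier results of these data known.

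Named genes are up to 16 members with a symbol each way by the gap to the nearest other clone, members in a list, up to 4 genes of each list described with the largest difference, the beta cell markers, and probe sets beside the limits of the rule; further names are marked as chosen after their values were seen. Alternatives covered scaling, offset, filter, fold limits, the choice of probe set and leaving out each clone. The code of the rule was run on simulated arrays with planted shifts larger than the distance limit. That checks the code only and bears on none of the genes. Python 3.11.15, pandas 2.3.3, numpy 2.4.6, scipy 1.17.1 and matplotlib 3.10.9 were used.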

Additional observations from a re-analysis of the deposited data

How the results depend on the processing

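The 24 and 7 probe sets depend on the limits. Without the filter on dim signals they became 38 and 18, and with a filter at the 60th percentile the 24 became 15. With a distance of 1.5-fold they became 100 and 28, with 3-fold 4 and 0, and with distance taken from parental alone 37 and 12. With clone 5-3.19 held to the narrower closeness limit the 7 became 4, and the shares kept became 23.5% (others below parental) and 17.9% (others above). With a 3-fold distance the share kept where the others lay above parental was 0%. Leaving out 1 other clone gave 31 to 65 and 11 to 23, where 5-3.14 moved both counts most; the shares kept were then 39.6% to 50.3% and 25.0% to 43.2%. Other scalings gave 21 and 24 probe sets on the higher side, of which 20 (median centring) and 22 (quantile normalization) were among the 24; an offset 4 times larger left 17. With no offset, chosen after seeing the data, there were 25 and 7. Differences from parental in clones 5-3.19, 1-1.2, 1-1.16 and 5-3.14 numbered 1564, 1581, 1829 and 2094 without the filter, 241, 258, 421 and 472 at the 60th percentile, 1668, 1670, 2319 and 2310 at 1.5-fold, and 115, 129, 219 and 225 at 3-fold, so the order of clone 5-3.19 and 1-1.2 changes with the setting. The median of the hormone and transmitter receptor list, 0.04 log2, turned to -0.0032 with quantile normalization and to -0.041 with the mean over probe sets. Of 196 recomputed differences of the 28 named members, 11 moved by more than the spread of the other clones. The sign of these differences is fixed by the choice of members. Of 184 recomputed list medians, 20 moved by more than the spread of the list over the other clones, and 2 more did so and changed sign. Sign changes within that spread, such as that of the immediate early list without 1-1.16, are not in these counts. The cause of these changes was not tested, beyond fewer or more probe sets passing a limit. No paired analysis was possible because each line has 1 array, the clone numbers pair nothing and no test was made. Values near 100 and below, such as Gpr6 in 5-3.14, cannot be told from background without detection calls.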
